A study of Homo sapiens with 8 samples.

Results

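The protease inhibitors followed here belong to the SPINK, WAP and cystatin families and were measured in esophageal cells that overexpress miR-155-5p. They were 10 genes chosen by name, SPINK1, SPINK5, SPINK6, SPINK7, PI3, SLPI, WFDC5, WFDC12, CSTB and CST6, of the 58735 genes in the count table. SPINK7, an inhibitor of the esophageal lining, stood at 85.3 ± 62.0 CPM (counts per 1000000 on TMM-scaled library sizes) in miR-155OE and at 249 ± 36.1 CPM in CTRL (SD, n = 4 each). The cystatins CSTB and CST6 were also lower in each same-numbered pair of libraries, and WFDC5 was higher in each. Over all genes tested, 16.9% were lower and 18.8% were higher in all 4 pairs. On group alone 0 of the 10 genes passed at an adjusted p of 0.05 (edgeR), where 3.22% of all genes tested passed. SPINK7, CSTB, CST6 and WFDC5 passed with the replicate number fitted as a block, where 12.6% of all genes passed. SLPI, PI3 and SPINK5, which with CSTB gave nearly all the reads of the 10 genes, had mean levels in miR-155OE within 0.945 to 0.992 times those in CTRL.

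The cells were EPC2-hTERT, a human esophageal epithelial line immortalised with telomerase, and both groups share that background. The first group held 4 libraries of a stable line made by lentiviral overexpression of miR-155-5p (miR-155OE), and the second held 4 libraries of control cells (CTRL). Both were grown on porous inserts, then in 1.8 mM calcium for 5 days, then at the air-liquid interface, where such cells stratify. The promoter of the construct, what the control cells carry and whether the line is 1 clone are not given in the sources used here. Total counts were 33443635 to 40589679 in miR-155OE and 34131130 to 52746852 in CTRL. MIR155HG and MIR155, the host gene and hairpin of the microRNA, had 0 reads in all 8 libraries, so these counts give no check of the overexpression. On the first principal component, which held 50.2% of the variance, miR-155OE replicate 2 stood at 4.44, apart from the other miR-155OE libraries (−26.7 to −10.9) and within the CTRL range (2.36 to 19.0). The libraries are numbered 1 to 4 in each group and are not said to be separate cultures, so each p-value covers the spread among these libraries alone, and that spread may be technical.

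Protease inhibitors of stratified epithelium hold back the enzymes that loosen and shed the surface cells. The SPINK proteins carry Kazal domains and block serine proteases such as kallikreins and trypsin. Proteins with a WAP (whey acidic protein) domain, such as elafin and SLPI, block neutrophil elastase and its relatives. Cystatins block cysteine proteases, among them the cathepsins and legumain. Loss of SPINK5 causes Netherton syndrome, a disease of skin barrier and allergy, and loss of SPINK7 has been described in eosinophilic esophagitis.

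The microRNA and its match in these genes are shown because a seed match is the first feature looked for in a direct target. The mature sequence is from RefSeq on GRCh38.p14, with the seed (bases 2 to 8) in capitals, and it is read from the plus strand of chromosome 21, chr21:25573983-25574006.

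hsa-miR-155-5p: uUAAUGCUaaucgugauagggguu

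The annotated 3′ UTRs of GENCODE release 29 were searched for AGCATTA, its 8-base form AGCATTAA and GCATTAA, on the transcript strand only, where the 8-base form contains both others. A match was present in 1 of the 10 genes, SPINK1, and in 2337 of the 12559 tested genes with an annotated 3′ UTR (18.6%), each read by its longest one. The 8-base form occurred in 4.83% of those genes. The SPINK1 match starts at base 151 of the 935-base UTR of transcript SPINK1-203 and is absent from the 96-base UTR of SPINK1-201. It lies on the minus strand of chromosome 5, chr5:147827863-147827870 (GRCh38), with the matched bases in capitals.

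SPINK1-203 site: tttatatatttAGCATTAAatattattttt

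SPINK1, known as the pancreatic trypsin inhibitor, had 6.34, 5.32, 7.10 and 4.24 CPM in miR-155OE replicates 1 to 4, against 6.57, 8.89, 4.33 and 4.18 CPM in CTRL replicates 1 to 4. The groups overlapped, with 2 pairs higher and 2 lower in miR-155OE. Its log2 fold change was −0.05 (SE 0.25), with a 95% interval of −0.61 to 0.50 (edgeR quasi-likelihood test, adjusted p = 0.939). No match was found in the annotated UTRs of SPINK7 (105 and 241 bases), CST6 (108 bases) or CSTB (1694 and 2056 bases), which says only that these letters are not in those stretches.

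All 10 genes had enough reads to be tested among 15135 genes. On group alone, with p-values from the quasi-likelihood test of edgeR adjusted by Benjamini-Hochberg over all genes, 0 of the 10 were called at 0.05, where 3.22% of all genes were called (2.17% higher and 1.05% lower). At an unadjusted p under 0.05 there were 3, SPINK7, CSTB and CST6, each lower in miR-155OE, beside 19.3% of all genes. DESeq2 called 1, CSTB, as did the authors' deposited table, which calls 4.73% of its genes. Deviations of same-numbered libraries from their group means correlated at 0.497 to 0.607 for numbers 1, 2 and 4, but at only 0.184 for number 3. The best match of number 3 was number 4, so pair 3 is less sure as a pair. The replicate number was also fitted as a block. With that block 1 of the 10 rose (WFDC5) and 3 fell (SPINK7, CSTB and CST6), beside 7.43% of all genes higher and 5.17% lower. The median log2 fold change of the 10 on group alone was −0.07, against −0.01 over all genes tested. With the block these medians were −0.05 and −0.01.

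**Figure D1:**
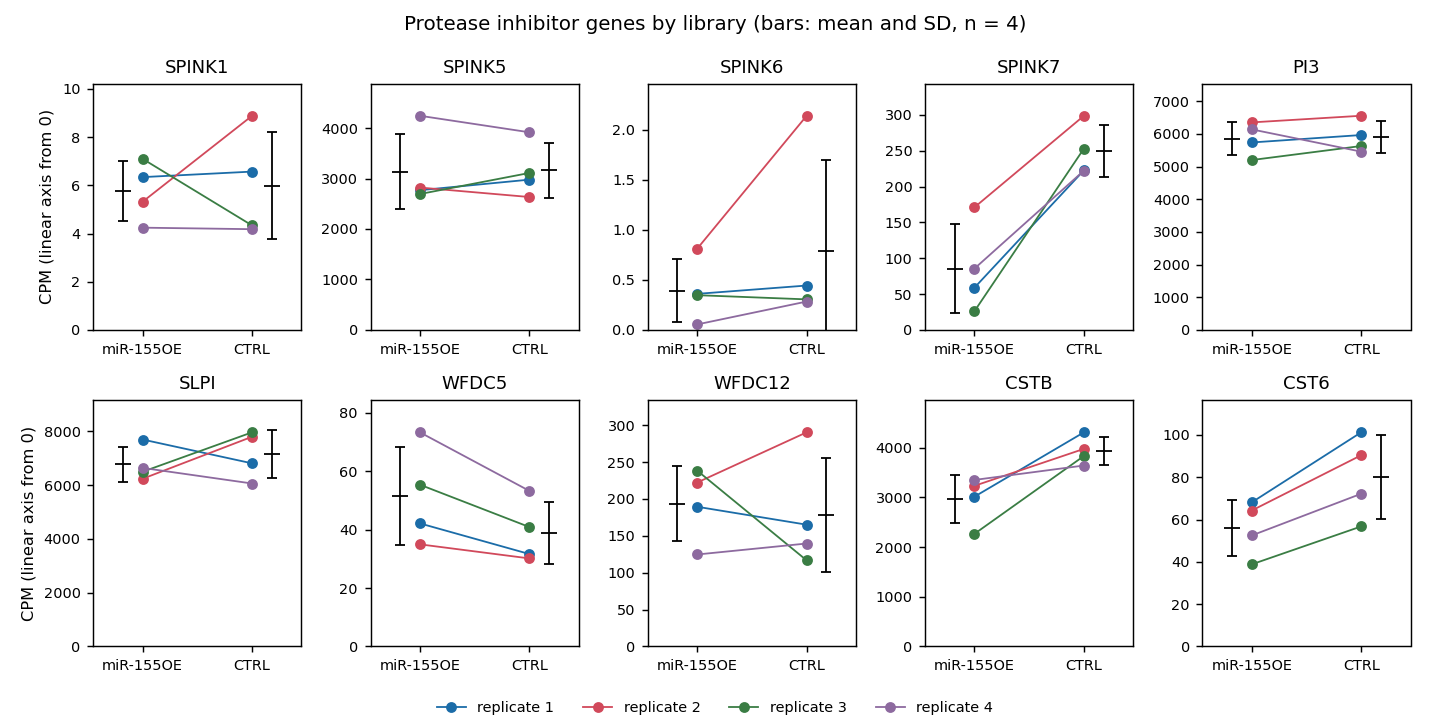
CPM of each inhibitor gene in every library, miR-155OE on the left and CTRL on the right of each panel, on linear axes from 0; lines join libraries with the same number and the black bars give the mean and SD of 4 libraries. SPINK7 and CSTB do not overlap between the groups, and CST6 and WFDC5 slope the same way in all 4 pairs; the lower SD bar of SPINK6 in CTRL runs below 0 and is not shown there.

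SPINK7, a Kazal inhibitor of the esophageal lining also called ECRG2, lies at 148312419 to 148315922 on the plus strand of chromosome 5 (ENSG00000145879, GRCh38). It had 58.8, 171, 26.0 and 85.5 CPM in miR-155OE replicates 1 to 4. In CTRL replicates 1 to 4 it had 223, 299, 253 and 222 CPM. Every miR-155OE library lay below every CTRL library, and miR-155OE replicate 2 came closest to them. The coefficient of variation was 72.7% in miR-155OE and 14.5% in CTRL, so the overexpressing libraries were the more scattered group. On group alone the log2 fold change was −1.55 (SE 0.43, 95% interval −2.50 to −0.59) and did not pass (edgeR adjusted p = 0.0771). Of the 8 fits that leave out 1 library, SPINK7 passed only without miR-155OE replicate 2 (−2.13, adjusted p = 0.00533). That fit called more genes in general, 1274 of 15475, against 488 of 15135 with all libraries. In the other 7 fits the adjusted p of SPINK7 was 0.0990 to 0.191, and its value nearest 0 was −1.24, without miR-155OE replicate 3. In the blocked fit SPINK7 fell by 1.81 on the log2 scale (SE 0.32, edgeR adjusted p = 0.00812), lower in 4 of 4 pairs. The pairs 1 to 4 gave log2 differences of −1.92, −0.81, −3.28 and −1.38. This blocked call held without any single pair (highest adjusted p = 0.0475). SPINK7 lies inside the span of AC091948.1, an antisense gene with 6 to 18 reads in each library, and whether the counting used strand is not given in the sources used here. In bulk RNA, fewer cells of a type and less RNA per cell cannot be told apart, for SPINK7 as for the genes after it. The authors' deposited table lists SPINK7 at a log2 fold change of −1.54 with an adjusted p of 0.0522.

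SPINK5 encodes LEKTI, a large inhibitor of kallikreins 5, 7 and 14, and lies on chromosome 5 (148025683 to 148137289) like SPINK7, with SPINK6 between them. It had 2769, 2822, 2693 and 4244 CPM in miR-155OE replicates 1 to 4, against 2978, 2634, 3111 and 3917 CPM in CTRL replicates 1 to 4. Replicate 4 was the highest in both groups, and the groups overlapped. The log2 fold change was −0.01, with a 95% interval of −0.38 to 0.36 on group alone and of −0.20 to 0.15 with the block (edgeR adjusted p = 0.976 and 0.874).

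The 250 bases before the RefSeq starts of SPINK7 and SPINK5 (GRCh38.p14, plus strand) are shown with matches to TATAAA, read on both strands, in capitals. The SPINK7 stretch is chr5:148312173-148312422, and that of SPINK5 is chr5:148063730-148063979, which follows a RefSeq start inside the deposited SPINK5 gene span.

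SPINK7 upstream: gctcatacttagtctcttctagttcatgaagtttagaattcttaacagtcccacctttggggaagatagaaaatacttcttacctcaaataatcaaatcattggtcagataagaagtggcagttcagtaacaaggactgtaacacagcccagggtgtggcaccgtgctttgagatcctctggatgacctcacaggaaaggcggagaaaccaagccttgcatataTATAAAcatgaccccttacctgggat

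SPINK5 upstream: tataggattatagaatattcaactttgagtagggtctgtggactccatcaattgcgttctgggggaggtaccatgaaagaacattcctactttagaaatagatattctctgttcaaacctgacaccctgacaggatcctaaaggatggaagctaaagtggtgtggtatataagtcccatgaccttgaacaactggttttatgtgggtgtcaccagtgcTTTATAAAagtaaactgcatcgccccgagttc

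A TATAAA match stood 26 bases before the start in SPINK7 and 30 bases before it in SPINK5, where a match on the minus strand overlaps it by 4 bases. Such a match is present in 10.7% of the 35116 stretches of 250 bases listed in the RefSeq promoter table. Neither stretch held TGANTCA, the AP-1 motif (6.57% of stretches), or NACGTG, the core motif of hypoxia-inducible factor (18.5%), on either strand. GC content was 42.8% for SPINK7 and 41.6% for SPINK5.

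SPINK6, another kallikrein inhibitor of skin, was near the limit of detection, with 12, 29, 14 and 2 reads in miR-155OE replicates 1 to 4 and 15, 74, 16 and 11 reads in CTRL replicates 1 to 4. CTRL replicate 2 alone held 74 of the 116 CTRL reads. Its log2 fold change was −0.98 (SE 0.78, adjusted p = 0.542 by edgeR) and became 0.20 without that library, so no direction could be read for SPINK6 at this depth.

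Levels between genes were compared per length, as CPM per kilobase of the deposited gene length. In miR-155OE the order was SLPI (11357 ± 1076), PI3 (10152 ± 879), CSTB (754 ± 124), SPINK5 (715 ± 170), WFDC12 (250 ± 64.9), CST6 (73.7 ± 17.4), SPINK7 (55.2 ± 40.2), WFDC5 (49.3 ± 16.1), SPINK1 (3.88 ± 0.839) and SPINK6 (0.537 ± 0.426) (SD, n = 4 each). In CTRL the order was the same down to WFDC12, with SLPI at 12013 ± 1498, PI3 at 10230 ± 839 and CSTB at 1001 ± 71.6 CPM per kilobase. There SPINK7 (161 ± 23.3) stood above CST6 (106 ± 25.9) and WFDC5 (37.3 ± 10.2). The ranges of SPINK7 and CST6 did not overlap in CTRL, and in miR-155OE those of CST6, SPINK7 and WFDC5 overlapped from each to the next. SLPI and PI3 overlapped in both groups, and CSTB and SPINK5 overlapped in miR-155OE. In CTRL the ranges of WFDC12 and SPINK7 overlapped, as did those of SPINK1 (4.05 ± 1.498) and SPINK6 (1.08 ± 1.23). The deposited length of CSTB, 3935 bases, equals its whole span with introns, so its level per length is understated.

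The elastase inhibitors were the most abundant of the 10 genes in both groups. SLPI, the secretory leukocyte protease inhibitor, had 7698, 6238, 6498 and 6642 CPM in miR-155OE replicates 1 to 4, against 6811, 7801, 7966 and 6061 CPM in CTRL replicates 1 to 4. PI3, which encodes elafin, an elastase inhibitor that is crosslinked into the cornified envelope, had 5738, 6353, 5200 and 6139 CPM in miR-155OE replicates 1 to 4. In CTRL replicates 1 to 4 PI3 had 5966, 6556, 5630 and 5458 CPM. Both genes overlapped between the groups, and their log2 fold changes were −0.08 (95% interval −0.33 to 0.17) for SLPI and −0.01 (95% interval −0.23 to 0.21) for PI3 (edgeR adjusted p = 0.757 and 0.966). Together SLPI, PI3, CSTB and SPINK5 took 1.87 ± 0.152% of all counts in miR-155OE and 2.01 ± 0.0891% in CTRL (SD, n = 4 each).

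WFDC5 and WFDC12, small WAP proteins of the skin, lie beside PI3 and SLPI on chromosome 20. WFDC5 had 42.1, 35.0, 55.4 and 73.3 CPM in miR-155OE replicates 1 to 4, against 31.6, 30.1, 40.9 and 53.3 CPM in CTRL replicates 1 to 4. The groups overlapped, since replicates 3 and 4 were the higher ones in both, but each miR-155OE library was above its own-numbered CTRL library. On group alone WFDC5 was at 0.40 on the log2 scale (SE 0.24; edgeR, adjusted p = 0.399), and with the block WFDC5 rose by 0.38 (SE 0.06, adjusted p = 0.00535). The value on group alone was 0.18 without miR-155OE replicate 4. Over the 4 pairs its log2 difference ran from 0.21 to 0.46, and the blocked call held without any single pair (highest adjusted p = 0.0417). WFDC12 had 189, 222, 238 and 125 CPM in miR-155OE replicates 1 to 4, against 165, 290, 117 and 140 CPM in CTRL replicates 1 to 4. WFDC12 was higher in 2 pairs and lower in 2 (log2 fold change 0.12, 95% interval −0.49 to 0.73, adjusted p = 0.855 by edgeR).

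Both cystatins were lower in miR-155OE in each pair. CSTB encodes cystatin B, a cytosolic inhibitor of cathepsins (ENSG00000160213, chromosome 21, 43772511 to 43776445). It had 3014, 3232, 2266 and 3351 CPM in miR-155OE replicates 1 to 4, against 4309, 3976, 3833 and 3641 CPM in CTRL replicates 1 to 4. The groups did not overlap, and miR-155OE replicate 3 was the lowest. Of the 10 genes 2, SPINK7 and CSTB, had every miR-155OE library below every CTRL library, as had 5.25% of all genes tested, and 0 had every miR-155OE library above, as had 6.16%. CSTB had a log2 fold change of −0.41 on group alone (SE 0.12, 95% interval −0.69 to −0.13, adjusted p = 0.101 by edgeR). With the block CSTB fell by 0.42 (SE 0.10, adjusted p = 0.0270), a call that was lost without pair 1 (adjusted p = 0.152) or pair 3 (adjusted p = 0.0720). DESeq2 on group alone called it (log2 fold change −0.41, adjusted p = 0.0212), and the authors' deposited table gives CSTB an adjusted p of 0.0207.

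CST6 encodes cystatin M/E, a secreted inhibitor of legumain and of cathepsins L and V (ENSG00000175315, chromosome 11, 66011841 to 66013505). It had 68.1, 64.3, 38.8 and 52.5 CPM in miR-155OE replicates 1 to 4, against 101, 90.4, 56.8 and 72.2 CPM in CTRL replicates 1 to 4. The groups overlapped, with replicate 3 the lowest in both, yet the 4 pairs gave nearly equal log2 differences of −0.57, −0.49, −0.55 and −0.46. On group alone it was at −0.52 (SE 0.20, adjusted p = 0.186 by edgeR). With the block CST6 fell by 0.52 (SE 0.05, adjusted p = 0.00101), and the call held without any single pair (highest adjusted p = 0.0137). Of the 10 genes 3 were lower in all 4 pairs and 1 was higher in all 4, as were 16.9% and 18.8% of all genes.

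**Figure D2:**
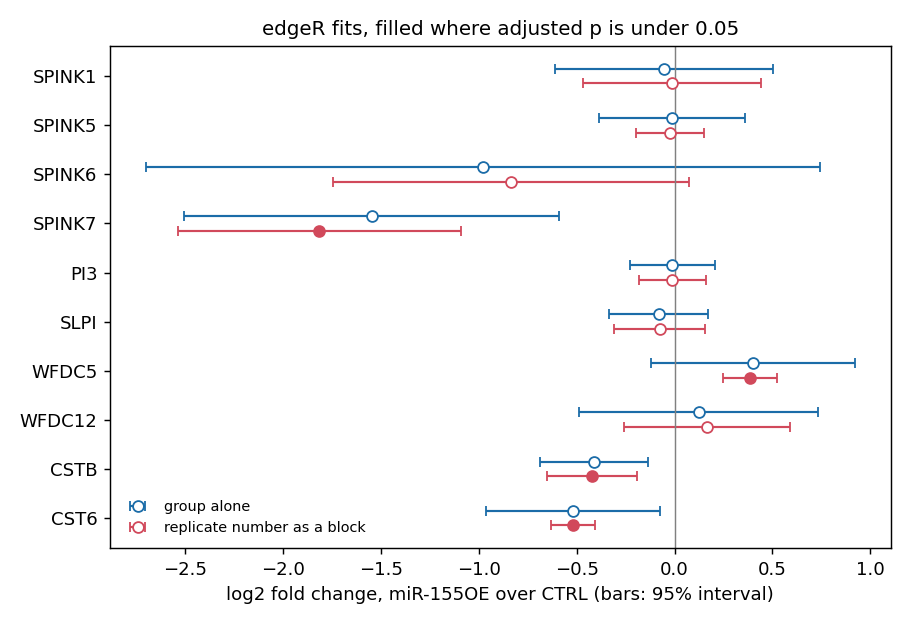
Log2 fold changes of miR-155OE over CTRL with 95% intervals from edgeR, on group alone and with the replicate number as a block; filled points have an adjusted p under 0.05. SPINK7, WFDC5, CSTB and CST6 are filled in the blocked fit and no gene is filled on group alone.

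**Figure D3:**
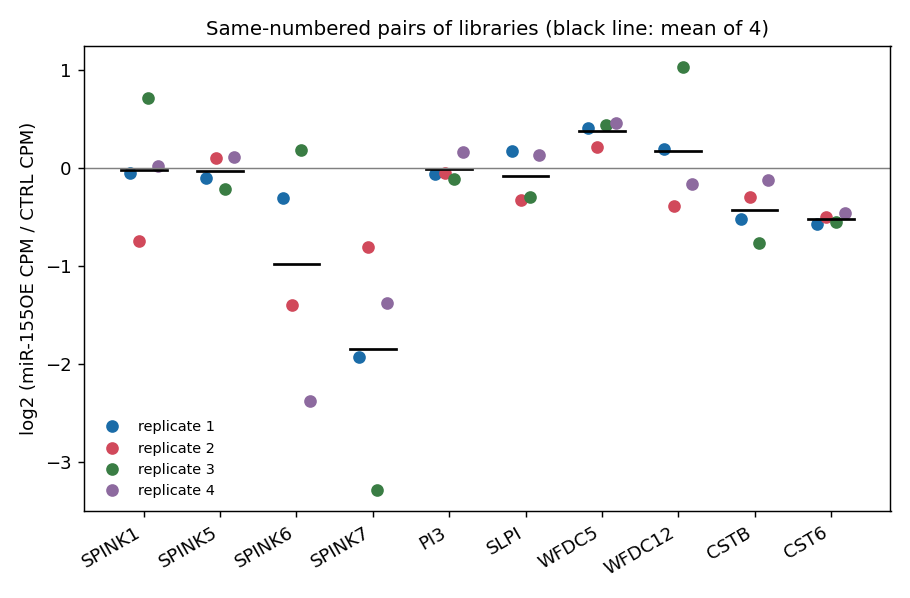
Log2 ratio of miR-155OE CPM to same-numbered CTRL CPM for each gene, with 1 point per pair and the mean as a black line. The CST6 points lie between −0.57 and −0.46 and those of SPINK7 between −3.28 and −0.81, while SPINK1 and WFDC12 fall on both sides of 0.

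Other genes of the same families were few in these cells, and their calls stand beside 1.05% of all genes lower on group alone and 5.17% lower with the block. Of 6 further SPINK genes 1 was tested, SPINK9, at 0.185 ± 0.115 CPM in miR-155OE and 0.555 ± 0.165 CPM in CTRL (SD, n = 4 each). SPINK9 did not pass on group alone (edgeR adjusted p = 0.0821) and fell with the block (log2 fold change −1.65, adjusted p = 0.0296). Of 14 further WAP genes 2 were tested and 1 fell, WFIKKN1 (log2 fold change −1.04, adjusted p = 0.0375 by edgeR), whose call was lost without each library except miR-155OE replicate 2 and CTRL replicate 4 (highest adjusted p = 0.110). ANOS1, the other one, stood at 2.85 ± 0.191 CPM in miR-155OE and 3.06 ± 0.446 CPM in CTRL. Of 12 further cystatins 2 were tested and 0 passed in either fit: CSTA, a cornified envelope precursor and the cytosolic relative of CSTB (log2 fold change −0.09, edgeR adjusted p = 0.826), and CST3, the common secreted cystatin (0.02, adjusted p = 0.908).

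Serine proteases of the kind these inhibitors hold back were described next. Of 13 tested, 1 rose on group alone and 0 fell, with a median log2 fold change of 0.14, and with the block 4 rose and 2 fell. Over all genes 2.17% were higher and 1.05% lower on group alone, and 7.43% higher and 5.17% lower with the block. KLK5, a kallikrein that starts the shedding cascade, had 304 ± 52.8 CPM in miR-155OE and 165 ± 34.9 CPM in CTRL (SD, n = 4 each). Its adjusted p by edgeR was 0.0225, with a log2 fold change of 0.88. Its call was lost without miR-155OE replicate 1 or 3 or CTRL replicate 1 (highest adjusted p = 0.0657). KLK8 had 34.1 ± 6.23 CPM in miR-155OE and 24.0 ± 3.21 CPM in CTRL (log2 fold change 0.51, adjusted p = 0.0672) and rose with the block (adjusted p = 0.0163). With the block KLK7 and KLK13 also rose (adjusted p = 0.0225 and 0.0224), and the transmembrane proteases TMPRSS11D and TMPRSS11E fell (log2 fold change −1.26 for each). PLAU, the urokinase, did not pass in either fit (log2 fold change 0.13). ELANE, the neutrophil elastase, had 0 reads in all 8 libraries.

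Of 10 tested cysteine proteases 1 rose and 0 fell on group alone, and 2 rose and 1 fell with the block. The shares of all genes were 2.17% higher and 1.05% lower on group alone, and 7.43% and 5.17% with the block. CTSL, cathepsin L, had 52.8 ± 7.89 CPM in miR-155OE and 33.3 ± 1.10 CPM in CTRL (SD, n = 4 each). Its adjusted p by edgeR was 0.00914 at 0.66 on the log2 scale (SE 0.10), and its call held without any single library (highest adjusted p = 0.0356). CTSC, cathepsin C, rose with the block (log2 fold change 0.26, adjusted p = 0.0149). CTSB, cathepsin B, had 705 ± 108 CPM in miR-155OE and 885 ± 32.0 CPM in CTRL and fell with the block (log2 fold change −0.34, adjusted p = 0.0365).

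Ratios of a protease to an inhibitor were taken within each library for 3 pairs, so that the scaling of libraries cancels. KLK5 over SPINK7 was 5.02, 1.67, 14.6 and 2.99 in miR-155OE replicates 1 to 4, against 0.788, 0.664, 0.459 and 0.769 in CTRL replicates 1 to 4. Every miR-155OE library was above every CTRL library (exact permutation test on log2 ratios, two-sided, p = 0.0286, the smallest that 4 against 4 allows, and 0.0857 adjusted over the 3 ratios). KLK5 and SPINK7 each separated the groups already, KLK5 higher and SPINK7 lower in miR-155OE. Their ratio therefore had to separate them too, and its p adds no support of its own. KLK5 over SPINK5 was 0.107, 0.101, 0.141 and 0.0602 in miR-155OE replicates 1 to 4, against 0.0589, 0.0753, 0.0373 and 0.0436 in CTRL replicates 1 to 4. The groups overlapped and the ratio was higher in 4 of 4 pairs (exact permutation p = 0.0571, adjusted p = 0.0857). LGMN over CST6, legumain and its inhibitor, averaged 0.827 ± 0.0958 in miR-155OE and 0.668 ± 0.151 in CTRL (SD, n = 4 each; exact permutation p = 0.143, adjusted p = 0.143), also higher in 4 of 4 pairs. The smallest p that 4 pairs allow is 0.125, and none of the ratios passed after adjustment.

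**Figure D4:**
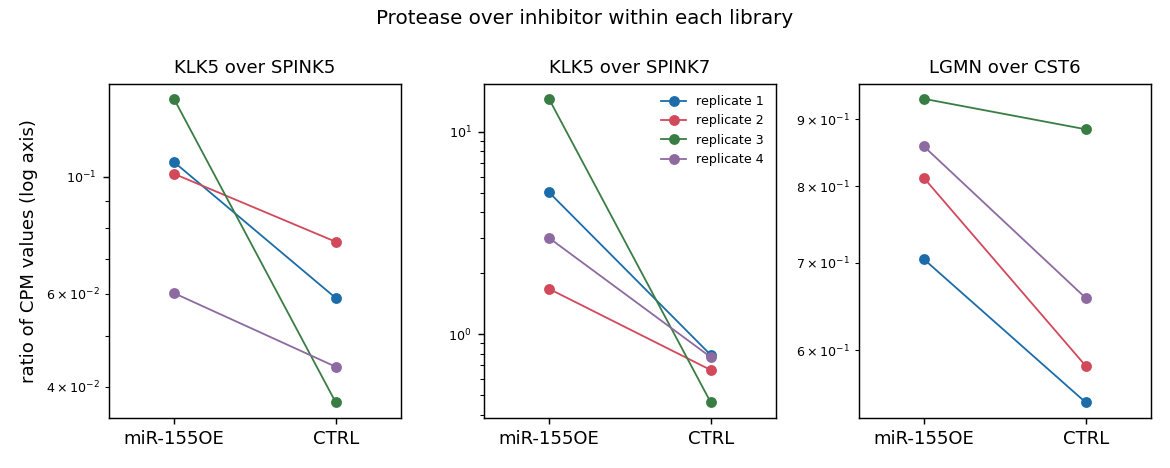
Ratio of protease CPM to inhibitor CPM in every library on log axes, miR-155OE on the left and CTRL on the right, with lines joining libraries of the same number. KLK5 over SPINK7 lies between 1.67 and 14.6 in miR-155OE and between 0.459 and 0.788 in CTRL.

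Markers of the squamous layers were read beside SPINK7. Of 10 mucosal suprabasal markers 0 passed on group alone and 7 fell with the block, where 5.17% of all genes were lower. KRT4, a keratin of moist mucosa, had 17.3 ± 20.8 CPM in miR-155OE and 95.4 ± 29.2 CPM in CTRL (SD, n = 4 each; blocked log2 fold change −3.00, adjusted p = 0.00696). EMP1, a membrane protein of the upper layers, had 205 ± 94.5 CPM in miR-155OE and 330 ± 51.2 CPM in CTRL (blocked log2 fold change −0.77, adjusted p = 0.00641). Summed over the 10 markers, the level was 591, 1807, 382 and 1043 CPM in miR-155OE replicates 1 to 4, against 1874, 2519, 2376 and 1751 CPM in CTRL replicates 1 to 4. As for SPINK7, miR-155OE replicate 3 was the lowest and miR-155OE replicate 2 the highest of its group, here within the CTRL range. Of 10 epidermal suprabasal markers 4 rose on group alone and 0 fell, where 2.17% of all genes were higher, namely KRT1 (log2 fold change 2.73, adjusted p = 0.00685), DSC1 (3.84, adjusted p = 0.0136), DSG1 and CASP14. Of these KRT1 kept its call without any single library, DSC1 lost it without CTRL replicate 1 or 3 (highest adjusted p = 0.0629), DSG1 without miR-155OE replicate 1 or CTRL replicate 1, 2 or 3 (0.0702), and CASP14 without each library except miR-155OE replicate 2 (0.124). With the block 6 rose, KRT10 and KRTDAP in addition, where 7.43% of all genes were higher. The other 4 passed in neither fit, with log2 fold changes on group alone of −0.19 for FLG2, −0.12 for FLG and −0.09 for LOR, proteins of the outermost layers, and 0.07 for KRT2. The sum of the 10 was 7495 to 26032 CPM in miR-155OE and 3958 to 10283 CPM in CTRL. The part of these layers in the change of SPINK7, CSTB, CST6 and WFDC5 was not tested.

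**Figure D5:**
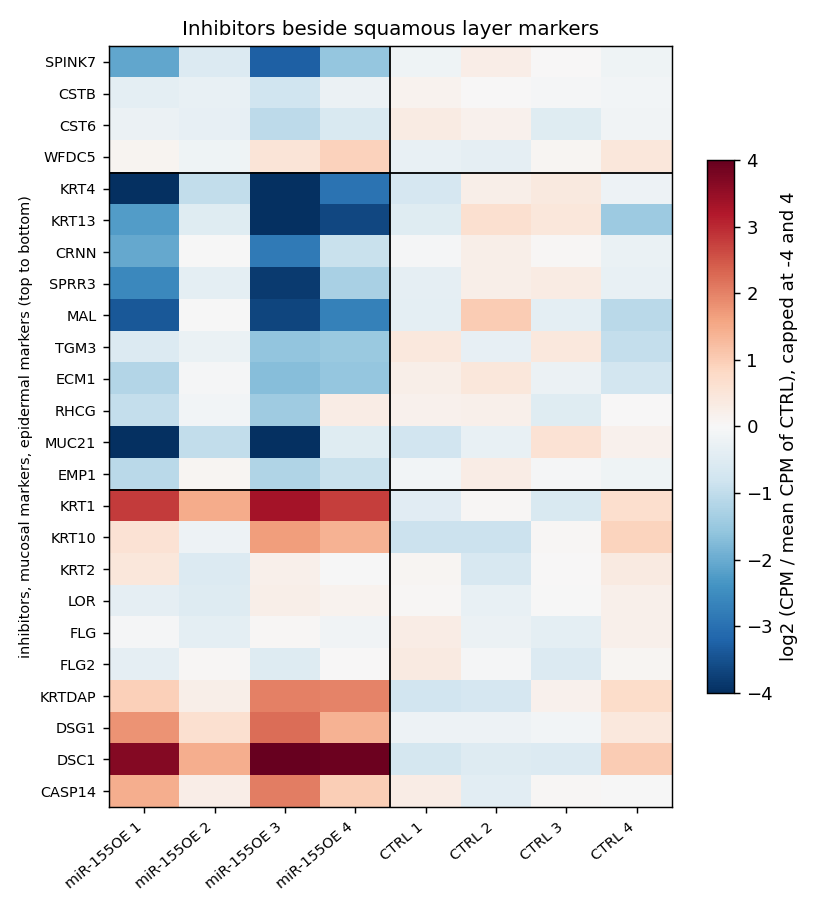
Log2 of CPM over the CTRL mean for SPINK7, CSTB, CST6 and WFDC5 (top), mucosal markers (middle) and epidermal markers (bottom), with miR-155OE libraries left of CTRL libraries and colours capped at −4 and 4. SPINK7 and most mucosal markers are lowest in miR-155OE replicate 3 and nearest to CTRL in miR-155OE replicate 2.

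Markers of other cell types were checked beside these changes. Among all genes 1.05% were lower on group alone, and 7.43% were higher and 5.17% lower with the block. Basal keratinocyte markers were abundant, at 18344 to 24652 CPM summed in miR-155OE and 20175 to 25629 CPM in CTRL, and of the 10 tested 1 fell on group alone and 2 with the block, KRT15 in addition (log2 fold change −0.46, adjusted p = 0.0292). The 1 on group alone was SOX2 (log2 fold change −1.29, edgeR adjusted p = 0.0403), whose call was lost without each library except miR-155OE replicate 2 and CTRL replicate 4 (highest adjusted p = 0.114). ITGB4, an integrin of the basal layer, did not pass (log2 fold change −0.18). Simple and glandular epithelium markers, 7 of 10 tested, summed to 98.2 to 278 CPM in miR-155OE and 170 to 351 CPM in CTRL. With the block 2 fell, KRT19 (log2 fold change −0.78, adjusted p = 0.0146, lower in 4 of 4 pairs) and KRT18 (−0.28, adjusted p = 0.0398). EPCAM did not pass in either fit (−0.64 on group alone) and CDX2 had 0 reads. Immune cell markers, 3 of 10 tested, summed to 9.29 to 17.0 CPM in miR-155OE and 8.02 to 10.5 CPM in CTRL. Of these CD14 and FCGR3B rose with the block (adjusted p = 0.0239 and 0.0385), and CSF3R and CPA3 had 0 reads. Fibroblast markers, 2 of 10 tested, summed to 108 to 243 CPM in miR-155OE and 115 to 212 CPM in CTRL. COL1A1 rose and VIM fell with the block (log2 fold change 0.40 and −1.25), and COL1A2, COL3A1, DCN, LUM and THY1 had 0 reads.

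The genes whose levels most resembled each inhibitor over the 8 libraries were taken from 9539 protein-coding genes with a mean of at least 5 CPM. Pearson's r of log2 CPM is given as a description, since each is the best of many and the libraries share their groups and numbers. For SPINK7 they were TCN1, a vitamin B12 binding protein of secretions (r = 0.990), CAV1, the coat protein of caveolae (0.988), and SPRR3, a cornified envelope protein of mucosa (0.985). TCN1 had 24.7 CPM in miR-155OE and 48.7 CPM in CTRL on average, and CAV1 had 132 CPM in miR-155OE and 174 CPM in CTRL. Both were chosen for their likeness to SPINK7 over these 8 libraries, so their lower levels in miR-155OE follow from that choice. Among the genes most like CSTB were LOXL2 and POLR3D (r = 0.969 and 0.968). CST6 was most like NUCB1, HPS6 and CXXC5 (r = 0.984, 0.979 and 0.976), and WFDC5 most like NAMPT, TMEM45A and TRA2A (0.987, 0.986 and 0.986).

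Partners of the inhibitors with no call were chosen on the same 8 libraries, so their small differences between groups follow from that choice. SPINK5 was most like UBAC1, RER1 and SRSF5 (r = 0.971, 0.964 and 0.962), PI3 most like FAM98B, LPAR6 and NUDT9 (0.984, 0.960 and 0.946), and SLPI most like SRPRA, MEIS2 and IL13RA1 (0.920, 0.911 and 0.906). SPINK1 was most like PRPS1, BANF1 and MRPS34 (r = 0.945, 0.943 and 0.933), and WFDC12 most like ARHGEF3, MRPS34 and TWF2 (0.948, 0.936 and 0.929). The log2 fold changes of these partner genes ran from −0.09 to 0.12. SPINK6 was below the level set for this comparison.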

How the data were processed

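RNA-seq of 8 libraries was used, and the 10 genes and the comparison lists were chosen with earlier results of these data known. Per the submitters' processing notes, reads were handled with HISAT2 2.0.5, featureCounts 1.5.0-p3 and DESeq2 on GRCh38. Strand setting and annotation release are not given in the sources used here. Raw read counts per gene were deposited, per the file headers, beside a deposited gene length. The authors' second table holds a normalised signal (the count over 1 size factor per library), not used here, and the authors' log2 fold change and p-value, quoted where named.

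Counts were fitted in R 4.3.3 with edgeR 4.0.16 (filterByExpr, TMM, quasi-likelihood F test, false discovery rate 0.05). SE and 95% intervals derive from the F statistic. Alternatives used DESeq2 1.42.0 and limma 3.58.1. Deviations of same-numbered libraries from their group means correlated at 0.578, 0.497, 0.184 and 0.607 over 10267 genes. Every correlation was over 0.1, the loose rule on which the numbers were fitted as pairs. For number 3 the best match in both groups was number 4, so its pairing is not established. The labels do not say what a replicate number shares. Named genes were the 10, the 2 lowest p of each list, the 3 most alike per gene (1 for CSTB is not reported here) and the ratio genes. DSG1, CASP14, KRT10, KRTDAP, FLG, FLG2, LOR, KRT2, KRT15, KRT19, KLK7, KLK13, TMPRSS11D, TMPRSS11E, PLAU, ELANE, CTSC, PTPRC, CD3E, MPO, LYZ and genes at 0 reads were named after their values were seen.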

Additional observations from a re-analysis of the deposited data

Results flagged for a closer look

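In groups of 4 libraries, the gap between the highest or lowest library and its neighbour was compared with the whole range for each gene, and 2 of 20 groups stood out, where chance gives about 1 in 20. SPINK5 in miR-155OE replicate 4 was 4244 CPM, against 2693 to 2822 CPM in the other miR-155OE libraries, and CTRL replicate 4 was also the highest of its group at 3917 CPM. SPINK6 in CTRL replicate 2 was 2.14 CPM, against 0.284 to 0.444 CPM in the other CTRL libraries.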

How the results depend on the processing

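The count of genes called was 488 of 15135 on group alone and 1908 of 15135 with the replicate block. It was 1200 with DESeq2 and 927 with no filter on low counts, each fitted on a larger set of 27858 genes. DESeq2 may leave some of these without an adjusted p. It ran from 125 to 1274 with 1 library left out, and was 623, 2059, 1389 and 971 with the block and pair 1, 2, 3 or 4 left out, a setting chosen after seeing the data. Among the 10 inhibitors, 0 rose and 0 fell on group alone. With DESeq2 1 fell (CSTB), with no filter 1 fell (SPINK7, adjusted p = 0.00599), and with the block 1 rose and 3 fell. Leaving out 1 library gave 0 that rose and 0 to 1 that fell, and leaving out 1 pair from the blocked fit gave 1 that rose and 2 to 3 that fell. SPINK7, CSTB and CST6 kept a negative and WFDC5 a positive log2 fold change in all 17 alternatives. With 1 library left out WFDC5 ran from 0.18 to 0.59 and SPINK7 from −2.13 to −1.24. Genes near 0 changed sign, as did SPINK6, which had few reads and was at −0.98 on group alone. SPINK1 was 0.0312 with limma-voom. With 1 library left out SPINK1 ran from −0.19 to 0.20, PI3 from −0.04995 to 0.0452, SPINK5 from −0.19 to 0.11, SPINK6 from −1.60 to 0.20, and WFDC12 from −0.0353 to 0.465. With the block and 1 pair left out the values above 0 were 0.00615 and 0.0242 for PI3, 0.00502 for SLPI, 0.00286 and 0.237 for SPINK1, and 0.00543 and 0.0383 for SPINK5, and WFDC12 was −0.116 without pair 3. The replicate block gave, in the other lists, 1 SPINK gene that fell, 4 serine proteases that rose and 2 that fell, 2 cysteine proteases that rose and 1 that fell, 7 mucosal, 2 basal and 2 simple epithelium markers that fell, 2 immune and 6 epidermal markers that rose, and 1 fibroblast marker each way. The log2 difference of KLK5 over SPINK7 was 2.16 to 3.20 without 1 library, and no ratio passed after adjustment in any setting. The cause of these differences was not tested. Depth limits SPINK6 and SPINK9, where 1 read is worth 0.0191 to 0.0300 CPM.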
